A study of Mus musculus with 2 samples.

Results

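The guanylate-binding proteins (GBP) and the immunity-related GTPases (IRG) are 2 families of large GTPases that cells make in response to interferons, above all interferon-gamma. The 10 genes examined here were listed by name, namely the GBP genes Gbp2, Gbp3, Gbp6, Gbp7, Gbp8 and Gbp9 and the IRG genes Irgm1, Igtp, Iigp1 and Ifi47, out of 22886 genes in the deposited tables. All 10 were found, each on 1 line of the tables. The data comprised 2 RNA sequencing libraries of polyA RNA from wild type C57BL/6 mice that carried subcutaneous tumors of Lewis lung carcinoma (LLC), a mouse lung tumor line. Both libraries were labelled as aerobic tumor cells isolated by cell sorting, 1 from vehicle-injected and 1 from clodronate-injected mice, and clodronate is a drug used to deplete macrophages. The age of the mice, the number of mice behind a library, the dose, the time after injection and the markers used for the sort were not given in the sources used here. A growth protocol in the labels named a blood progenitor line instead, and the groups were taken from the sample descriptions.

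In mouse macrophages and many other cells, interferon-gamma binds a receptor that signals through the Jak kinases to transcription factors, Irf1 among them, that drive the GBP and IRG genes. The products gather on the vacuoles that enclose parasites and bacteria and help to destroy them. Irgm1 and Igtp (also known as Irgm3) belong to the regulatory IRG proteins, which sit on the membranes of the cell itself and hold the effector IRG proteins such as Iigp1 (also known as Irga6) inactive there. Ifi47 (also known as Irgd) is counted with the effectors. The GBP proteins also open bacterial vacuoles to the cytosolic sensors of inflammation.

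The promoters of these genes are shown for 4 members with different behaviour between the libraries and for Irgm2, the neighbour and close relative of Igtp. Each is the stretch of 250 bases before the start site given by RefSeq on GRCm38.p6, written in the direction of the gene, and capitals mark matches to 2 short motifs, both searched on both strands. The first, GAAANNGAAA, is the core of the interferon-stimulated response element (ISRE), which Irf factors bind. The second, TTCNNNGAA, is the core of the gamma-activated site (GAS), an element of promoters that respond to interferon-gamma, and reads the same on both strands. These coordinates are not those of the deposited tables, which use mm9.
Igtp, chr11:58199306-58199555, strand +: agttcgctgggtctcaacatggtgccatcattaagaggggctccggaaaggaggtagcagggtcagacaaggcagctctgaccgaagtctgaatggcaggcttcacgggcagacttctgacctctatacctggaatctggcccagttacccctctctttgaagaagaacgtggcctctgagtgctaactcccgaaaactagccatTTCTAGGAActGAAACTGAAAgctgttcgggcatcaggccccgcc
Irgm2, chr11:58214727-58214976, strand +: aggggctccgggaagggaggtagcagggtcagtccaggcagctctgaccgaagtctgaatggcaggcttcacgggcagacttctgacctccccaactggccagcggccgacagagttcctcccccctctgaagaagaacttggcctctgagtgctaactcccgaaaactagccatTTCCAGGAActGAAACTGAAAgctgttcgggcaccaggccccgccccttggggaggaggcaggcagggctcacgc
Gbp2, chr3:142620413-142620662, strand +: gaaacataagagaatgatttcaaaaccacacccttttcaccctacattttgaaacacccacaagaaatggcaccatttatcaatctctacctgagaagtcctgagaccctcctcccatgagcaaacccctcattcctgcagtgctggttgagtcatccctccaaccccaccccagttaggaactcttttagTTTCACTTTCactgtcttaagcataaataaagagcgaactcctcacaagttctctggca
Gbp3, chr3:142559794-142560043, strand +: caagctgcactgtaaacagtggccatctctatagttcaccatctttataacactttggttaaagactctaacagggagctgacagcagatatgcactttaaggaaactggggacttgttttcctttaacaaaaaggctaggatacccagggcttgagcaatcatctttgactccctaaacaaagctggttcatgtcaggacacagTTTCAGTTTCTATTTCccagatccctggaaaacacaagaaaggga
Gbp7, chr3:142530086-142530335, strand +: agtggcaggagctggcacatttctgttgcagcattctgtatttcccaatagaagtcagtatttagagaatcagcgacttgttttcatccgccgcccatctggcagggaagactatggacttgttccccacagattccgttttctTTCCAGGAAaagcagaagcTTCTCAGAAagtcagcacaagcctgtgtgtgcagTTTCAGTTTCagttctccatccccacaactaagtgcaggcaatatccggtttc

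Of the 10 members, 6 were matched to a promoter that was used here, with 7 windows in all because Gbp3 has another start site. For 5 of these 6 members a window held the ISRE core. Counted by window and not by gene, 2.98% of 32851 mouse promoter windows of the same length did. The exception was Ifi47, in which neither motif was matched in the window used, and any other start site of it was not searched. The GAS core was matched in Igtp and Gbp7, against 7.02% of all windows, and both motifs together were found in 0.332% of all windows. In Igtp the GAS core began 45 bases and the ISRE core 34 bases before the start site. Irgm2 and the effector gene Tgtp2 held the same pair at the same spacing of 11 bases between their first bases, and the ratio of clodronate to vehicle RPKM was 1.58 for Irgm2 and 0.715 for Tgtp2. The longest run that the Igtp and Irgm2 windows shared without a mismatch was 55 bases. It began at base -181 of Igtp, counted from the start site, and ended before the motif pair. The stretch around the motif pair was also shared, apart from the GAS core, which read TTCTAGGAA in Igtp and TTCCAGGAA in Irgm2. The ISRE matches of Gbp3, which overlapped each other, began 45 and 39 bases before its start site. Gbp3 has another RefSeq start site, for which neither motif was matched in the window before it. A match is only a match of letters, and binding was not measured.

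**Figure D1:**
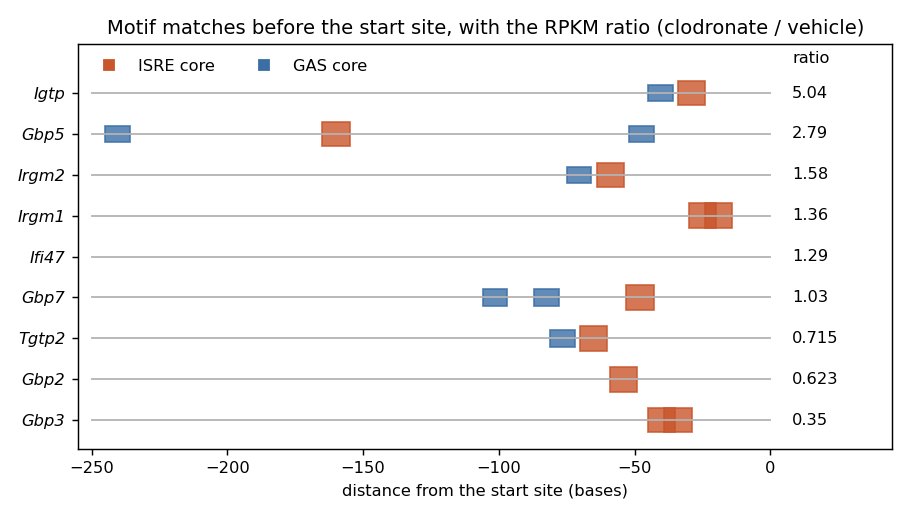
Matches to the ISRE core (orange) and the GAS core (blue) in the 250 bases before the start site (x axis, distance in bases) of 6 members and of Irgm2, Gbp5 and Tgtp2, with the ratio of clodronate to vehicle RPKM at the right. For Gbp3 the window with matches is drawn. Igtp, Irgm2 and Tgtp2 have the same pair of matches but ratios of 5.04, 1.58 and 0.715.

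The files gave RPKM, that is read numbers divided by transcript length and by sequencing depth, and held no read counts. In loci with few reads the values moved in steps of 1 read, from which the depth was inferred at about 13800000 mapped reads for the vehicle and 11200000 for the clodronate library, 1.23 times as deep for vehicle. The read numbers given below are therefore inferred and approximate, and the intervals are 95% intervals that cover counting error only. With 1 library per condition no difference has a replicate check, and no test was made. Differences between individual mice, sorts or library preparations cannot be told apart from an effect of the injection.

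The labelled cell type was compared with marker genes. The macrophage genes Lyz2 (10534 RPKM with vehicle, 11189 with clodronate) and Csf1r (446 and 465 RPKM) were abundant, and all 10 macrophage markers found were kept, with a median log2 ratio of 0.03. With clodronate 6 of them were higher and 4 lower, with log2 ratios from -0.96 to 0.40. The lowest was that of C1qc, with 3984 and 2043 RPKM, and Emr1 had 357 and 261 RPKM. Of 6 epithelial genes, Epcam and Krt19 were listed at 0 throughout, and Cdh1 reached the top value of the list, 6.44 RPKM. Of the 3 epithelial genes kept, 2 were higher with clodronate and Krt8 was lower, with 3.67 and 1.33 RPKM. The libraries thus carried abundant macrophage transcripts and little RNA of epithelial genes, although the labels call the cells tumor cells. Low epithelial genes alone do not give the share of LLC cells, which was not tested. Of 6 endothelial genes, the 3 kept were all higher with clodronate, and their median log2 ratio was 0.95. Cdh5, which joins endothelial cells to each other, had 0.480 and 3.24 RPKM, a ratio of 6.76 (interval 4.43 to 10.9). Pecam1 had 1.24 and 3.33 RPKM, a ratio of 2.69 (interval 1.94 to 3.84), and Eng, which macrophages can also express, had 22.3 and 25.7 RPKM. Tek was listed at 0 in both libraries, and the summed RPKM of the list was 24.7 and 33.5. The part of endothelial cells in the differences given below was not tested. In such bulk samples fewer cells of one type and less RNA per cell cannot be told apart.

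Between the libraries the 10 members did not move as a block. Igtp stood at 5.04 times its vehicle level in the clodronate library, while Gbp3 and Gbp2 were lower there, by 2.86-fold and 1.60-fold. Irgm1, Ifi47, Gbp8 and Gbp9 were higher by 1.29-fold to 1.61-fold, and Gbp6, Gbp7 and Iigp1 differed by less than their counting error. On the log2 scale of RPKM + 1, the ratio of clodronate over vehicle was positive for 7 members and negative for 3, with a median of 0.20 against 0.02 over all 10982 genes kept, that is genes whose average over both libraries was 1 RPKM or more. All 10 members passed this filter. Over all genes kept, the ratio was positive for 5664 and negative for 5318. At least 3-fold higher on that scale was 1 member, Igtp, and 0 members were at least 3-fold lower. With upper-quartile scaling the log2 ratios of Gbp6 and Gbp7 also fell just below 0. The share of all genes kept that lay past the same threshold was 2.86% on the higher and 2.32% on the lower side. At least 2-fold, the counts were 1 higher (Igtp) and 1 lower (Gbp3), against 6.95% and 6.77% of all genes kept. Each of these counts rests on 1 gene or none, so no difference of the family from all genes can be read from them.

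**Figure D2:**
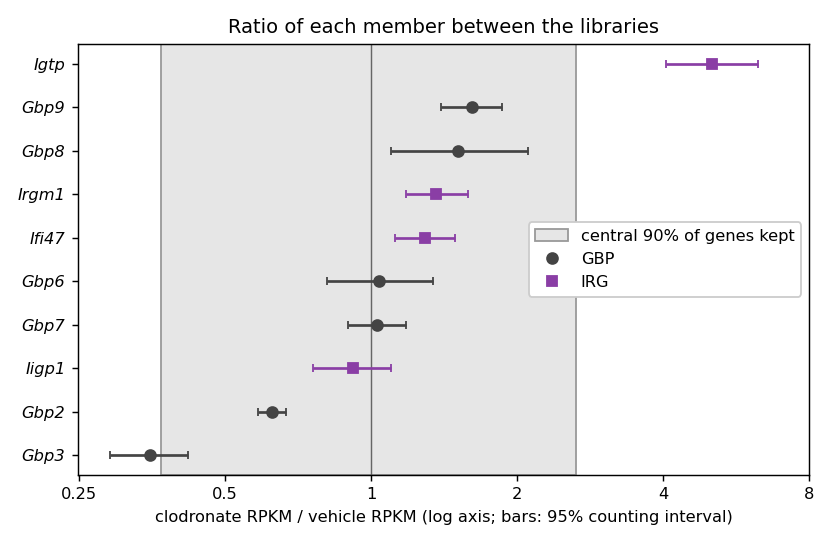
Ratio of clodronate to vehicle RPKM (x axis, log scale) for each member, circles for GBP and squares for IRG genes, with 95% counting intervals; the shaded band holds the central 90% of the 10774 genes kept that were above 0 in both libraries, from 0.368 to 2.64. Igtp lies above the band and Gbp3 just below it at 0.350, though its interval reaches into the band.

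Among the regulatory IRG genes, Igtp had 4.19 RPKM with vehicle and 21.1 RPKM with clodronate, from about 106 and 434 reads. The clodronate value was 5.04 times the vehicle value (interval 4.05 to 6.26), and 1.29% of all genes kept had a log2 ratio at least as high as its 2.09. Igtp was thereby 9th of the 10 members by level in the vehicle and 3rd in the clodronate library. Irgm1, whose product also guards macrophages against mycobacteria, had 12.4 and 17.0 RPKM, from about 354 and 394 reads. Its ratio of 1.36 (interval 1.18 to 1.58) exceeded counting error but lay well within the spread of all genes, since 23.8% of the genes kept had a log2 ratio at least as high. Irgm1 lies on chromosome 11 of mm9 from 48678751 to 48684848. Igtp lies on the same chromosome from 58013058 to 58021094, and Irgm2, a further regulatory IRG gene, starts 7384 bases farther on. Irgm2 had 6.03 and 9.50 RPKM, a ratio of 1.58 (interval 1.34 to 1.86). Igtp was thus at 0.695 times the level of Irgm2 in the vehicle library and at 2.22 times that level in the clodronate library. Of the runs of 50 bases in the Igtp transcript, 12.3% also occur in Irgm2, and how reads in these stretches were divided between both genes is not known.

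Among the effector IRG genes, Iigp1, a well studied member, had 7.16 RPKM with vehicle and 6.55 RPKM with clodronate, from about 279 and 208 reads, a ratio of 0.915 with an interval from 0.760 to 1.10 that holds 1. It lies on chromosome 18 of mm9 from 60535683 to 60552283. Ifi47 had 17.8 and 23.0 RPKM, a ratio of 1.29 (interval 1.12 to 1.49). Ifi47 was 2nd of the members by level in both libraries. Its line in the tables, on chromosome 11 from 48851162 to 48948889, carries 4 RefSeq accessions, which belong to Ifi47 and to the olfactory receptor gene Olfr56, and the same span also holds a line of Tgtp2. The Ifi47 value can therefore include reads of Olfr56. Tgtp2, a further effector IRG gene, had 3.67 and 2.62 RPKM, a ratio of 0.715, and 89.8% of its runs of 50 bases are shared with Tgtp1, which was found under no symbol, so that its value is uncertain.

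**Figure D3:**
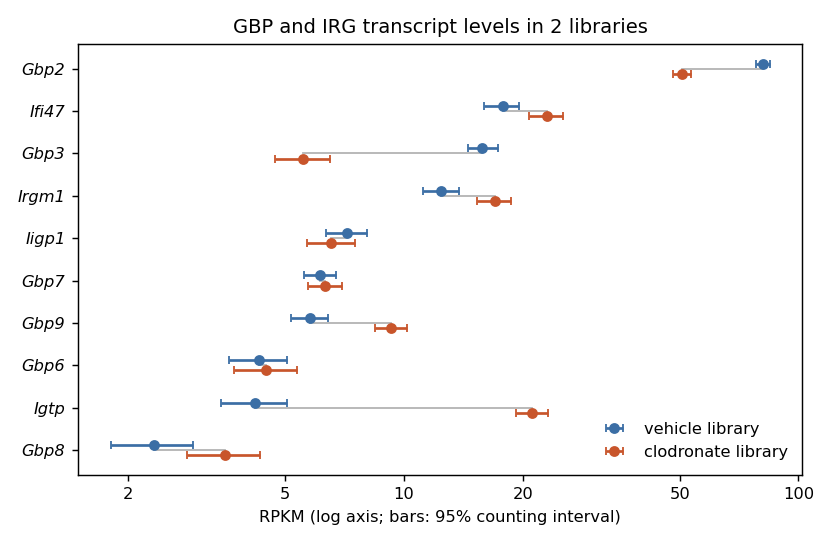
RPKM (x axis, log scale) of the 10 members in the vehicle (blue) and clodronate (orange) libraries, ordered by the vehicle level, with 95% counting intervals. The points of Igtp (4.19 and 21.1 RPKM) and Gbp3 (15.8 and 5.55 RPKM) lie farthest apart, in opposite directions, and Gbp2 is highest in both libraries.

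The GBP members on chromosome 3, Gbp2, Gbp3 and Gbp7, lie in 1 cluster, yet their values diverged. Gbp2 was the most abundant member, with 81.3 RPKM after vehicle and 50.7 RPKM after clodronate, from about 2604 and 1324 reads. It was 1.60-fold lower in the clodronate library (interval 1.50 to 1.72), and its level stood at percentile 91.1 and 85.5 of the genes kept. Gbp2 made up 51.7% of the summed RPKM of the 10 members in the vehicle and 34.4% in the clodronate library. Gbp3 had 15.8 and 5.55 RPKM, from about 532 and 152 reads, and was 2.86-fold lower (interval 2.38 to 3.44). In all, 3.36% of the genes kept had a log2 ratio as low as its -1.36, and Gbp3 passed from 3rd to 8th among the members. Gbp7, by contrast, had 6.12 and 6.32 RPKM, a ratio of 1.03 (interval 0.897 to 1.18). On mm9 Gbp7 spans 142193302 to 142213047, Gbp3 spans 142223016 to 142236176 and Gbp2 spans 142283627 to 142300972. Few runs of 50 bases are shared within this group, namely 4.88% of those of Gbp3 with Gbp7 and 2.07% of those of Gbp2 with Gbp2b. For Gbp7, 12.8% of the runs occur in any other GENCODE M21 gene, with 10.6% in Gm43802.

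On chromosome 5, Gbp8, Gbp9 and Gbp6 had low to moderate levels, and each had a log2 ratio above 0, though that of Gbp6 fell just below 0 with upper-quartile scaling. Gbp9 had 5.78 and 9.30 RPKM, a ratio of 1.61 (interval 1.39 to 1.86). Gbp8, the member with the lowest level in both libraries, had 2.32 and 3.51 RPKM from about 72 and 89 reads, a ratio of 1.51 (interval 1.10 to 2.10). Both ratios lay inside the central 90% of the genes kept. Gbp6 had 4.29 and 4.47 RPKM, a ratio of 1.04 (interval 0.812 to 1.34). The Gbp6 value is uncertain, because 70.3% of its runs of 50 bases also occur in other genes of the tables, with 62.3% in Gbp10. Gbp10 stood at 0 with vehicle and at 0.107 RPKM with clodronate. Among all GENCODE M21 genes, Gm43302 shared the most, with 90.2% of the Gbp6 runs. For Gbp8 the share of runs found in other genes of the tables was 21.2% and for Gbp9 it was 9.56%. On mm9 Gbp8 spans 105443172 to 105482580, Gbp9 spans 105507413 to 105539311 and Gbp6 spans 105699721 to 105722718. The summed RPKM of the members was 103 and 62.6 on chromosome 3, and 12.4 and 17.3 on chromosome 5.

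Within a library, several neighbours in the order of levels had overlapping counting intervals, which is not a test of their difference. In the vehicle library these were Ifi47 and Gbp3, Iigp1 and Gbp7, Gbp7 and Gbp9, and Gbp6 and Igtp. In the clodronate library they were Ifi47 and Igtp, and each pair of neighbours from Iigp1 through Gbp7, Gbp3 and Gbp6 to Gbp8. Gbp2 stood apart from all others in both libraries. The highest member exceeded the lowest 35.1-fold in the vehicle and 14.5-fold in the clodronate library.

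The other genes of both families were also mixed. Of 14 further symbols searched, 10 were found and 5 were kept, of which 2 were higher and 3 lower in the clodronate library. Gbp5, which promotes inflammasome assembly, had 3.22 and 8.99 RPKM, a ratio of 2.79 (interval 2.26 to 3.46), and lies next to Gbp7 on chromosome 3. Gbp4 had 4.78 and 2.18 RPKM, 2.19-fold lower in the clodronate library (interval 1.74 to 2.75). Irgq, an IRG-like gene that is not known as an interferon target, had 5.43 and 3.72 RPKM. Gbp2b stood at 0 with vehicle and at 0.577 RPKM with clodronate.

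The interferon-gamma pathway was followed from the ligand to its targets. Ifng, the gene of interferon-gamma itself, had 2.75 RPKM in the vehicle library, from about 38 reads, and was listed at 0 in the clodronate library. A 0 in these files was not taken as a measured absence. There were 80 genes listed at 0 in 1 library with at least 5 RPKM in the other, and the source of these 0 values was not tested. T and NK cells are the main makers of interferon-gamma, and of 9 of their markers Cd3e, Cd3g and Ncr1 were listed at 0 in both libraries. Cd4, which mouse macrophages can also carry, had 10.3 and 7.72 RPKM, while Nkg7, Gzmb and Klrb1c stood at 0 with vehicle and at 1.02, 0.586 and 0.918 RPKM with clodronate. These 3 values rested on about 8, 8 and 20 reads. The summed RPKM of the 9 markers was 10.3 in both libraries, but Cd4 made up nearly all of it with vehicle and most of it with clodronate. The equal sums therefore do not show that the other markers were level. The part of T and NK cells in the Ifng value was not tested.

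The receptor genes Ifngr1 and Ifngr2 had 102 and 89.6 RPKM with vehicle, and 95.9 and 73.6 RPKM with clodronate. The kinase gene Jak1 had 48.1 and 45.3 RPKM, and Jak2 was 1.69-fold lower in the clodronate library (interval 1.53 to 1.85), with 19.9 and 11.8 RPKM. All 5 genes of ligand, receptor and kinases had a negative log2 ratio, as had 5318 of the 10982 genes kept. The 1 past 3-fold was Ifng, against 2.32% of all genes kept on the lower side. No fold is given for Ifng because its clodronate value is 0. Jak1 (-0.08), Ifngr1 (-0.10) and Ifngr2 (-0.28) lay between the 25th and 75th percentiles of all genes kept, -0.38 and 0.40. All 5 transcription factors listed had a positive log2 ratio, as had 5664 of all genes kept. Their median was 0.19, and 0 reached 3-fold. The log2 ratios were 0.64 for Stat2, 0.35 for Irf9, 0.19 for Irf1, and 0.10 for Irf8 and for Batf2. Of these, only that of Stat2 lay outside the same percentiles, so the shared sign does not show a common rise. The intervals of the RPKM ratio held 1 for Irf8 (0.992 to 1.16) and for Batf2 (0.862 to 1.35). Irf1 had 55.9 and 64.1 RPKM and Irf8 had 36.3 and 39.0 RPKM. Of the 5 inhibitors of the pathway, 3 were higher and 2 lower. Socs1, which blocks the Jak kinases, had 0.714 and 3.15 RPKM, a ratio of 4.42 (interval 2.84 to 7.13), and its log2 ratio of 1.28 on the scale of RPKM + 1 was below 3-fold. Socs3 had 58.5 and 77.3 RPKM.

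Other known targets of interferon-gamma also lay on both sides. Of 17 listed, 16 were found and 14 kept, with 8 higher and 6 lower and a median log2 ratio of 0.04. Their log2 ratios ran from -0.76 to 0.88, so that 0 were at least 2-fold in either direction. The chemokine genes Cxcl9 and Cxcl10 differed in opposite directions, with 60.4 and 35.3 RPKM for Cxcl9 and 46.8 and 78.6 RPKM for Cxcl10. Of the immunoproteasome genes, Psmb8 had 49.6 and 68.6 RPKM and Psmb9 23.4 and 33.2 RPKM, whereas Psmb10 had 55.9 and 35.2 RPKM.

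Genes of the type I interferon response, which answer above all to interferon-alpha and interferon-beta, are given for comparison. Of these 12 genes, 11 were higher in the clodronate library, 4 of them at least 3-fold, and the median log2 ratio was 1.29, against 0.20 for the 10 GTPase genes. Of all 10982 genes kept, 5664 were higher, and 2.86% were at least 3-fold higher. Irf7 had 20.1 and 107 RPKM, and Ifit1 had 2.47 and 13.1 RPKM. The log2 ratios of this list ran from -0.03 to 2.36 and those of the GTPase genes from -1.36 to 2.09. Igtp, at 2.09, lay within the range of the type I list, and Gbp2, Gbp3 and Iigp1 lay below all of its genes. The difference between both lists was not tested, as there was 1 library per condition.

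**Figure D4:**
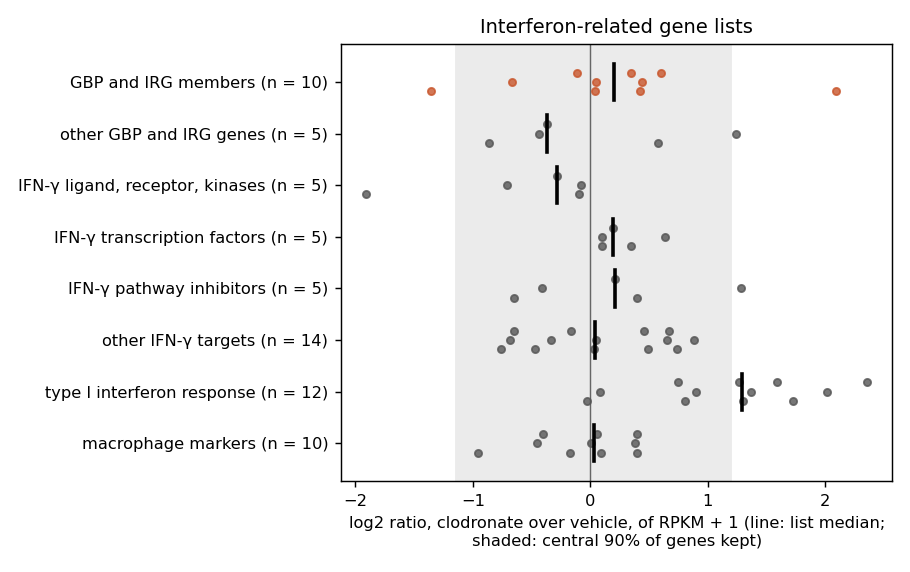
Log2 ratio of clodronate over vehicle (x axis, RPKM + 1) of each gene kept in 8 lists, 1 point per gene, with the list median as a black line; the shaded band holds the central 90% of all genes kept, from -1.14 to 1.20. The GTPase members have a median of 0.20 and spread to both sides, whereas the type I interferon list has a median of 1.29.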

How the data were processed

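The authors deposited 1 table of RPKM values per library, with 23170 loci that carry RefSeq accessions, gene symbols and mm9 positions. Per the labels, the submitters' processing notes name CASAVA 1.8.2, TopHat2 2.0.9, Bowtie 0.12.9, Cufflinks 2.2.1 and Cuffdiff, without their roles. RPKM over lines of the same symbol were summed, and 26 symbols that had become numbers were replaced by the accession, which left 22886 genes. Log2 ratios were computed on RPKM + 1, and genes averaging 1 RPKM or more over both libraries were kept. Starts are given 1-based, taking the deposited starts as counted from 0, as Cufflinks writes them. The members and gene lists were chosen with earlier results of these data known. Any member or gene of a list could be named, and an item of the lists is not reported here.

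Depth was inferred from loci with few reads. The most frequent ratio of vehicle to clodronate values in 458 low loci, 0.8162, was shared by 53 loci, and was taken as the same number of reads in both. The value of 1 read was fitted to loci of about 1 read as a function of GENCODE M21 transcript length less 193 nt. Of the loci of 1 to 3 inferred reads, 82.0% (vehicle) and 82.2% (clodronate) then lay within 0.15 of a whole number, against 30% for evenly spread values. For vehicle these include the loci of about 1 read used in the fit, so its share is not an independent check. Read numbers of genes with several transcripts use their mean length. Intervals are exact (Poisson for a level, conditional binomial for a ratio) at 95%, and PCR duplicates and shared sequence are not covered. Runs of 50 bases were compared with all GENCODE M21 transcripts on both strands. Only the fold call, with large simulated differences, and the fit of the value of 1 read were tested on simulated data. The intervals, the comparison of runs and the motif search were not. Python 3.11.15, numpy 2.4.6, pandas 2.3.3, scipy 1.17.1 and matplotlib 3.10.9 were used.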

Additional observations from a re-analysis of the deposited data

How the results depend on the processing

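No paired analysis was possible because only 1 library exists for each condition. Tried in turn were 0.1 as the pseudocount, omission of the filter, a filter at 5 RPKM (which leaves out Gbp6 and Gbp8), subtraction of the median ratio, upper-quartile scaling, the top line of a symbol, 2-fold in place of 3-fold and, chosen after seeing the data, removal of the trends with GC content and transcript length. Under each of them Igtp was the 1 member past the fold on the higher side. At 2-fold the number of members on the lower side was 1, Gbp3, in place of 0. The median log2 ratio of the members was 0.37 with these trends removed, and between 0.15 and 0.21 under the others. The sign of 3 members turned, Gbp7 from 0.04 to -0.01 and Gbp6 from 0.05 to just below 0 with upper-quartile scaling and Iigp1 from -0.11 to 0.09 with the trends removed, each within counting error. Over all genes kept, 314 passed 3-fold on the higher and 255 on the lower side, with 532 and 480 at a pseudocount of 0.1, 127 and 101 with the filter at 5 RPKM and 763 and 744 at 2-fold. These counts follow from how many genes can pass each setting. No member has more than 1 line, so the highest line and the missing filter could not alter its value. The inferred depth limits Gbp8 and Igtp most, with about 72 and 106 reads in the vehicle library.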

Other observations

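The partners of the GTPases showed no common direction between the libraries. The IRG and GBP proteins are loaded onto vacuoles with the help of the Atg8 proteins and the enzymes that attach these to membranes. Of 10 such genes, 5 were higher and 5 lower after clodronate, the median log2 ratio was 0.06 and 0 passed 3-fold in either direction. Atg5, part of the attaching complex, had 9.02 RPKM with vehicle and 16.5 RPKM with clodronate, while its partner Atg12 had 13.2 and 7.73 RPKM. Gabarap was the most abundant, with 1087 and 884 RPKM.

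Bacteria exposed by the GBP proteins are sensed in the cytosol by the caspase encoded by Casp4 and by the DNA sensor Aim2. Of 6 genes of this pathway, 3 were higher and 3 lower, with a median log2 ratio of -0.11. Casp4 had 59.0 and 72.2 RPKM and Aim2 had 7.34 and 10.7 RPKM, whereas Casp1 had 33.0 and 18.9 RPKM and Gsdmd, the pore-forming target of these caspases, had 52.2 and 39.0 RPKM.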
